A study of Mus musculus with 57 samples.

Results

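Glycolysis and the response to low oxygen were followed through 34 named genes during retinoic acid differentiation of mouse embryonic stem cells. The members were taken by name: the Ensembl identifiers of the deposited count table were translated to gene symbols with the GENCODE M21 annotation of GRCm38, and all 34 symbols matched among the 55450 annotated genes of the table. They comprise 3 glucose and lactate transporters, 17 glycolytic enzymes, 4 regulators of glycolytic flux, 5 genes of oxygen sensing and 5 targets of the hypoxia response. Of the 34, 32 passed the filter on low counts in every comparison, and Hif1a and Adm had 0 counts in all 57 libraries. The members, and the other gene lists used below, were chosen with earlier results of these data known. Counts of called genes over these lists are therefore no independent test.

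The libraries cover 19 conditions with 3 replicates each, all from the Sox1-EGFP/FoxA2mCherry line, in which EGFP replaces 1 Sox1 allele and mCherry is fused to the C-terminus of FoxA2. The line is a chosen clone, and the gates were set with unlabelled R1WT cells. Day 0 (D0) cells came from medium with serum and the cytokine LIF and were taken through the Sox1-FoxA2- gate. Sorted cells of D2, D4 and D6 had spent 2, 4 or 6 days in serum-free N2B27 medium with 1 uM retinoic acid and were separated through 4 gates: double negative (Sox1-FoxA2-), single positive for FoxA2 (Sox1-FoxA2+) or for Sox1 (Sox1+FoxA2-), and double positive (Sox1+FoxA2+). Progeny of D4 and D6 came from each gate but the double negative: the cells were sorted at D2, replated and grown for 2 or 4 more days in serum medium without LIF but with 1 uM retinoic acid, and harvested without another sort. Progeny and sorted cells of the same day therefore differ in replating, in basal medium and in the day of the sort together, and these cannot be told apart. D0 and D2 differ in serum, LIF, basal medium and retinoic acid together, which likewise cannot be told apart.

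Glycolysis breaks glucose down to pyruvate, and lactate dehydrogenase converts pyruvate to lactate. Several steps are carried out by isozymes from different genes, so that cell types can run the same pathway with different gene products. When oxygen falls, the prolyl hydroxylases encoded by Egln1 and Egln3 stop marking the hypoxia-inducible factors Hif1a and Epas1 (also called HIF-2alpha) for destruction, and these factors pair with Arnt to switch on genes for glucose uptake, glycolysis, blood vessel growth and mitophagy. Undifferentiated embryonic stem cells are known for high glycolytic activity, and the visceral endoderm of the yolk sac is a known source of Vegfa.

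The factors bind DNA at a short core with the letters ACGTG or GCGTG. RefSeq promoter windows of GRCm38.p6, from 250 bases before to 50 bases after each gene start, were found for 32 of the 34 members, 10 of them with more than 1 start, in 46 windows. ACGTG, on either strand, was present in a window of 21 of the 32 member genes (65.6%), against 21.8% of the 27025 genes in the table. GCGTG was present for 22 (68.8%), against 35.2%, and either core for 29 (90.6%), against 46.7%. By window, the shares with ACGTG were 52.2% of the members' 46 windows and 19.6% of all 32851. Many members were listed because they are known targets of the factors, so these shares describe the list and are no independent finding. The 5 windows printed here belong to genes whose levels changed in the comparisons that follow. They are read 5′ to 3′ on the strand of the gene, the gene start follows the first 250 bases, and capitals mark each core on either strand, CACGT and CACGC being ACGTG and GCGTG read from the opposite strand. CACGTG holds ACGTG on each strand and stands here as 2 overlapping matches.
Ldha, chr7:46845554-46845853, plus strand: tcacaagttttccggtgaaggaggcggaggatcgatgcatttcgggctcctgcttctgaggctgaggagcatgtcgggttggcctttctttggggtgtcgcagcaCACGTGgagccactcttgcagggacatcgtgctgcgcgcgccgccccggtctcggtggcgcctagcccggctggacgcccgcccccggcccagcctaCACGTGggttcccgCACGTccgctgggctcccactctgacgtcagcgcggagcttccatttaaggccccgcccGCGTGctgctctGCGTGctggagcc
Pgk1, chrX:106186850-106187149, plus strand: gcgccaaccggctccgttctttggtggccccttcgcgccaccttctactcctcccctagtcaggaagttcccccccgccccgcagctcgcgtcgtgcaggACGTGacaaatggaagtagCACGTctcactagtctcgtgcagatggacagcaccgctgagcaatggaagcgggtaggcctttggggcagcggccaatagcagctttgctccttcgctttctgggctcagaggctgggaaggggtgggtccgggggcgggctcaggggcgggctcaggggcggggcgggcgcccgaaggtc
Bnip3, chr7:138909457-138909756, minus strand: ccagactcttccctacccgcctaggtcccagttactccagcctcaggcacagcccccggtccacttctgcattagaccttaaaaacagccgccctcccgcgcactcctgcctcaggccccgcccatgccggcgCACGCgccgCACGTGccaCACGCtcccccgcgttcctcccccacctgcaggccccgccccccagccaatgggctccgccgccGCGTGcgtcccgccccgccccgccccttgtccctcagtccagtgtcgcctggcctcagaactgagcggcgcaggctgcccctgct
Egln1, chr8:124949205-124949504, minus strand: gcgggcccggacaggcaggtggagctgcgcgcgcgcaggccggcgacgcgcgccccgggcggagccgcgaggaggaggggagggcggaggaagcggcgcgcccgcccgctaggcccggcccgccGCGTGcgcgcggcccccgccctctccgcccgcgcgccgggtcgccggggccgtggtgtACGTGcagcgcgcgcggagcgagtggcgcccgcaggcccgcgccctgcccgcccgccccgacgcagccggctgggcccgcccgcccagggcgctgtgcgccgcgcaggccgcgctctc
Pfkl, chr10:78009758-78010057, minus strand: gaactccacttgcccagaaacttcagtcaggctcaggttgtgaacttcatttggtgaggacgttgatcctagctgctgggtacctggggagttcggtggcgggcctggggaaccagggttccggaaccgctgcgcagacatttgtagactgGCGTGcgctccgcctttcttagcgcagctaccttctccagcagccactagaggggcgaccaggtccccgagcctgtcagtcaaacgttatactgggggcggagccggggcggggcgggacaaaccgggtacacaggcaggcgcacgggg
Ldha carried 5 matches of ACGTG and 2 of GCGTG, Bnip3 had 2 and 3, Egln1 had 1 and 1, and Pgk1 had 2 of ACGTG only. Pfkl, by contrast, held a single GCGTG and no ACGTG in its window. Not every window of a member that changed held a core: the window of Tpi1 and 1 of the 2 windows of Vegfa held neither, while the second window of Ldha held 2 of GCGTG and 0 of ACGTG. The windows shown are thus not a sample of the list. A match describes the letters of the window and shows no binding.

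The way reads were assigned to genes limited several members. All 13036 genes that lie wholly inside the span of another annotated gene, 1287 of them protein-coding, had 0 counts in all 57 libraries, against 11.1% of the other 42414 genes. Hif1a (chromosome 12, 73901375 to 73947530) lies inside the annotated gene Gm15283, and Adm (chromosome 7, 110627661 to 110629820) inside Gm28863, so their zeros carry no information on expression. Sox1 and Sox2 were at 0 in the same manner. Parts of other members also lie in the spans of neighbouring genes: 61.3% of the exon bases of Slc2a1, 57.9% of Bnip3, 50.6% of Aldoa and 46.0% of Ankrd37, and 15.3% or less of the rest. Members with near-identical copies elsewhere have uncertain counts, and 53.9% of the 50-base words of Pgk1, 47.2% of Bnip3, 36.2% of Pgam1, 26.0% of Eno1, 25.8% of Pkm and 25.1% of Gapdh also occur in transcripts of other genes. Levels were therefore compared between conditions for each gene and not between genes.

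Library totals ran from 10170632 to 81845651 counts, and the share of counts on mitochondrial genes from 3.21% to 18.5%. Foxa2 RNA was at 1530 to 2790 normalised counts in D6 Sox1-FoxA2+ cells and at 21 to 135 in D6 Sox1+FoxA2- cells. In cells labelled D6 Sox1+FoxA2+, however, Foxa2 was at 0 in the lowest library, 79.2 in the next and 753 in the highest. The libraries at 0 and 79.2 did not exceed the 21 to 135 of D6 Sox1+FoxA2- cells. The paper, by contrast, reports more FoxA2 RNA in mCherry-positive than in negative sorted populations over time. The gate rests on the fluorescence of the FoxA2mCherry fusion protein, so the label is a protein measure and low RNA alone does not show a wrong label. The paper found the fusion well correlated with FoxA2 antibody staining at D6, over imaged cells and not for this gate. Whether the label is right was not tested. Summed over 12 markers of visceral and parietal endoderm, D6 Sox1-FoxA2+ cells held 766000 to 1660000 normalised counts, with Afp and Ttr at 0, against 8100 to 12900 in D6 Sox1+FoxA2- cells and 75100 to 553000 in D6 Sox1+FoxA2+ cells. In progeny of D6 the same sum was 909000 to 1670000 for Sox1-FoxA2+, 34500 to 100000 for Sox1+FoxA2- and 152000 to 360000 for Sox1+FoxA2+. D6 Sox1+FoxA2+ replicate 2 had the fewest genes with a count, 14458, and its results are given with and without it. Levels below are normalised counts, the deposited counts divided by a size factor per library, and a gene was called changed when edgeR's quasi-likelihood test gave an adjusted p under 0.05 over all genes tested.

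Between D0 and D2, the first step of differentiation, 9 of the 17 glycolytic enzymes fell in Sox1-FoxA2- cells and 0 rose. Of 32 members tested, 10 fell and 0 rose, while 1.93% of the 21278 genes tested were called in either direction. The 9 enzymes include at least 1 gene for each of the phosphofructokinase, aldolase, triosephosphate isomerase, glyceraldehyde-3-phosphate dehydrogenase, phosphoglycerate kinase, enolase, pyruvate kinase and lactate dehydrogenase steps. The median log2 fold change of the members was -0.86, against 0.12 for all genes. The 3 D2 libraries lay wholly below the 3 D0 libraries for 19 members and wholly above for 4, while 10.4% of all genes were separated downwards and 13.6% upwards.

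Ldha, which makes the lactate dehydrogenase subunit that favours lactate formation, was at 22630, 35460 and 19160 in the D0 libraries and at 5320, 6594 and 6119 at D2. The D2 libraries were tightly grouped and far below every D0 library, and Ldha fell by 2.08 ± 0.31 (SE) on the log2 scale (adjusted p = 0.0015, edgeR). Ldhb, the subunit that favours the reverse reaction, also fell, from 5535, 6267 and 6240 to 2332, 2150 and 1957 (log2 fold change -1.45 ± 0.34, adjusted p = 0.0306, edgeR). Pkm, which encodes the pyruvate kinase of most proliferating cells, went from 62270, 92350 and 62900 to 25940, 26560 and 25410 (-1.45 ± 0.24, adjusted p = 0.00295, edgeR). Eno1, the enolase of proliferating cells, stood at 32320, 55240 and 38190 before and at 15510, 16160 and 15090 after (-1.40 ± 0.25, adjusted p = 0.00651, edgeR). For Ldha, Pkm and Eno1 the D2 libraries lay closer together than those of D0, and for all 4 genes they lay below every D0 library.

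Higher in the pathway, Tpi1, the triosephosphate isomerase, fell from 6167, 6980 and 8001 to 2216, 2068 and 2371 (-1.63 ± 0.33, adjusted p = 0.0133, edgeR). Pfkl, the liver-type phosphofructokinase at the committed step, fell from 7389, 12060 and 4107 to 2952, 2531 and 2520 (-1.55 ± 0.36, adjusted p = 0.0276, edgeR). Aldoa, the main aldolase, fell from 16510, 27700 and 21090 to 9486, 9913 and 7846 (-1.23 ± 0.27, adjusted p = 0.0231, edgeR). Gapdh and Pgk1, which carry out the next pair of steps, had log2 fold changes of -1.20 and -1.21 (adjusted p = 0.0399 and 0.0258, edgeR). The groups did not overlap for any of these enzymes. Epas1 was the only gene of oxygen sensing called, falling from 6580, 3561 and 2052 to 804, 1239 and 990 (-1.99 ± 0.43, adjusted p = 0.0196, edgeR).

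**Figure D1:**
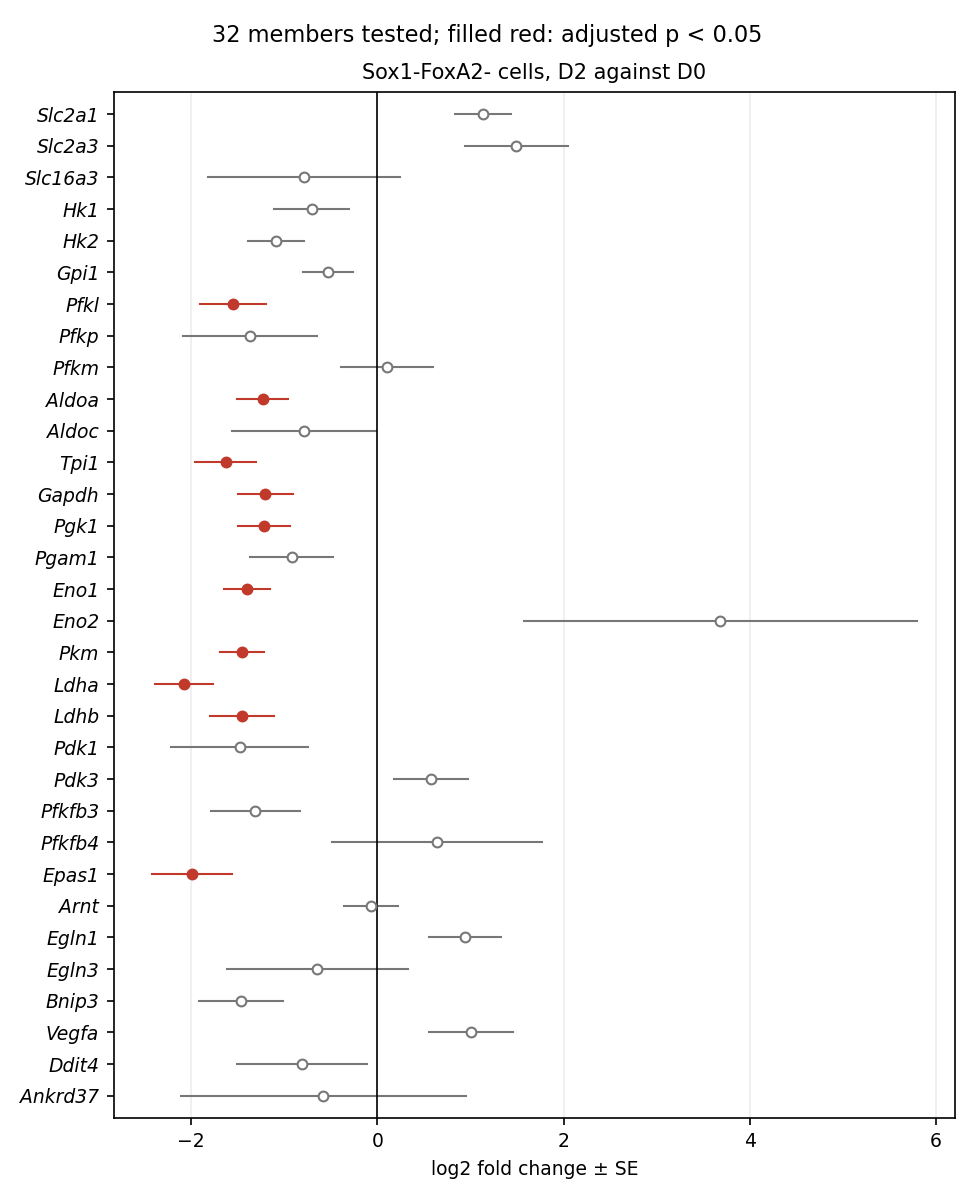
Log2 fold change of each tested member between D2 and D0 in Sox1-FoxA2- cells (x axis; bars are ± 1 SE, filled points passed an adjusted p of 0.05), genes on the y axis. The 10 called members, led by Ldha at -2.08, all lie left of 0, while Slc2a1 and Slc2a3 lie to the right.

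None of the 3 transporters was called. Slc2a1, the widely expressed glucose transporter GLUT1, was at 4138, 4244 and 5407 at D0 and at 9380, 10140 and 9845 at D2, a difference of 1.13 ± 0.30 on the log2 scale that missed the threshold (adjusted p = 0.0566, edgeR). Slc2a3, the high-affinity transporter GLUT3, was at 19760, 10220 and 28080 at D0 and at 45310, 60810 and 50980 at D2 (1.49 ± 0.55, adjusted p = 0.245, edgeR). The groups of libraries did not overlap for these 2 genes, and both were above D0 in each D2 library. Hk2, the inducible hexokinase, went from 13070, 8512 and 13770 to 4199, 6698 and 5258 without passing the test (adjusted p = 0.0686, edgeR), and neither did Bnip3, a mitophagy gene (adjusted p = 0.107). The summed share of counts on the 17 enzymes was 0.758% ± 0.240 (SD, n = 3) at D0 and 0.328% ± 0.0186 (n = 3) at D2, and it ran from 0.189% to 0.576% over the libraries of the other conditions, into the range of D0, whose lowest library was at 0.562%.

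Outside the members, 3 of 120 other genes of energy metabolism and oxygen sensing were called between D0 and D2, which is 2.5% against the background of 1.93%. Rora, a hypoxia-responsive nuclear receptor gene, rose by 2.98, while Myc, an activator of glycolytic genes, fell by 3.85 and Atp5a1, the alpha subunit of ATP synthase, fell by 0.98 on the log2 scale (adjusted p = 0.045, 0.0368 and 0.0244, edgeR). Pou5f1, a pluripotency gene, moved with the enzymes, from 5050 to 6120 at D0 to 672 to 1610 at D2, and the sum of 8 pluripotency markers, with Sox2 at 0, from 27000 to 81600 down to 11100 to 34700. Their part in the result was not tested. D0 replicate 2 had the highest level of 8 of the 10 called members and the lowest mitochondrial share, 3.21% against 6.80% and 18.1%. Without it, Pfkl, Aldoa, Gapdh, Pgk1 and Ldhb were no longer called (adjusted p = 0.144, 0.0821, 0.143, 0.159 and 0.0614, edgeR), although their log2 fold changes stayed between -1.34 and -0.78. These 5 calls also depended on other libraries: with each of the 6 left out in turn, Ldhb was lost in all 6 fits, Gapdh and Pfkl in 5, Pgk1 in 4 and Aldoa in 3, with adjusted p up to 0.197 (Gapdh, without D2 replicate 3). Epas1 was lost without D0 replicate 1 (adjusted p = 0.146), D2 replicate 1 or D2 replicate 3, and Tpi1 without D2 replicate 1 (0.0667) or D2 replicate 3. Eno1, Ldha and Pkm were called with any 1 of the 6 libraries left out, and the number of called members was lowest, 3, without D2 replicate 1 or D2 replicate 3.

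From D2 to D6 in retinoic acid medium, no member passed the test in 3 of the 4 gates. In Sox1-FoxA2- cells 0 members were called by edgeR (4 at an unadjusted p under 0.05, 1 by DESeq2), with 0.0188% of all genes called. Sox1+FoxA2- cells had 0 (5 unadjusted, 2 by DESeq2), with 0% of genes called although 2538 of 22328 had an unadjusted p under 0.05. Sox1+FoxA2+ cells also had 0 (3 unadjusted, 1 by DESeq2), against 0.126%. With so few genes called in all, these counts do not show constant expression. In Sox1+FoxA2+ cells, Epas1 went from 489, 448 and 1473 at D2 to 8167, 22410 and 21370 at D6, without overlap, a log2 fold change of 4.23 ± 0.78 that just missed the threshold (adjusted p = 0.0748, edgeR). It passed in 5 of the 6 fits with 1 library left out, all but the one without D6 Sox1+FoxA2+ replicate 2, with adjusted p up to 0.0484, and it passed by DESeq2 too. In Sox1+FoxA2+ cells, 3 of 32 members lay wholly higher at D6 than at D2 and 1 wholly lower, against 10.8% and 4.47% of all genes. Slc2a1 in Sox1+FoxA2- cells, at 17600, 19430 and 10060 at D2 and 6987, 4044 and 5690 at D6, had a log2 fold change of -1.72 ± 0.36 (adjusted p = 0.144, edgeR). Of 32 members in that gate, 2 lay wholly higher at D6 and 5 wholly lower, against 19.9% and 5.32% of all genes.

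In Sox1-FoxA2+ cells, 3 members rose and 2 fell between D2 and D6, against a background of 2.23% of 19407 genes. Epas1 climbed from 792, 586 and 4200 at D2 through 20660, 27720 and 21590 at D4 to 60470, 73370 and 52010 at D6, a log2 fold change of 4.99 ± 0.71 from D2 to D6 (adjusted p = 0.0056, edgeR). Every D4 library was above every D2 library, and every D6 library was above every D4 library. Pfkl rose from 3424, 2588 and 3535 to 8260, 8355 and 6906 (1.20 ± 0.26, adjusted p = 0.0171, edgeR) and Ldha from 5183, 5471 and 6024 to 12980, 15590 and 13240 (1.21 ± 0.25, adjusted p = 0.0119, edgeR). Slc2a1 fell, from 6631, 5125 and 8908 to 2349, 1776 and 1329 (-2.01 ± 0.34, adjusted p = 0.00221, edgeR), and so did Pdk3, a kinase that switches off pyruvate dehydrogenase, from 4279, 3449 and 3625 to 1071, 1681 and 1574 (-1.51 ± 0.35, adjusted p = 0.0232, edgeR). No group of 3 overlapped its counterpart for these 5 genes. Of 32 members, 9 lay wholly higher at D6 and 4 wholly lower, against 9.54% and 7.92% of all genes. Epas1 and Slc2a1 were called with any 1 of the 6 libraries left out, Epas1 with an adjusted p of up to 0.0492, but Slc2a1 was lost in a fit of all 57 libraries (adjusted p = 0.24). That these members moved otherwise than in the remaining gates was tested for Sox1+FoxA2- cells only. Pfkl, Pdk3 and Ldha were each lost in 4 of the 6 fits, with adjusted p up to 0.122, 0.159 and 0.118 (without D2 replicate 2, D2 replicate 1 and D2 replicate 1, respectively).

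Of 27 other genes of the hypoxia response tested in these cells, 4 were called, against 2.23% of all genes tested. All 4 rose: Plod2 by 3.62 and P4ha1 by 3.33 on the log2 scale (adjusted p = 1.89e-05 and 2.21e-05, edgeR), P4ha2 by 2.70 and Cited2 by 2.81. Plod2, P4ha1 and P4ha2 encode enzymes that hydroxylate lysine and proline in collagen, and Cited2 encodes a protein that limits hypoxia factor activity. Among the members, the targets Bnip3, Vegfa, Ddit4 and Ankrd37 were not called. Their log2 fold changes were 0.92, 0.77, -2.66 and 4.97 (adjusted p from 0.355 to 0.649, edgeR). Slc16a1, the lactate transporter MCT1, rose by 1.79 (adjusted p = 0.00166) and Hkdc1, a hexokinase-like gene, by 4.59 (adjusted p = 1.81e-05, edgeR). Over all lists, 6 of 122 other genes were called, or 4.92%, against 2.23% of all genes. The endoderm markers moved with these genes, their sum going from 31400 to 69200 at D2 to 766000 to 1660000 at D6, and their part was not tested. In bulk samples, more cells of a type and more RNA per cell cannot be told apart.

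The comparison of gates asks when cells on the way to endoderm and to neuroectoderm come to differ. The gates rest on the reporters, and the paper reports that EGFP tracked SOX1 protein well at D4 but not at D6. Sox1 gates of D6 are therefore reporter gates. At D2, Sox1-FoxA2+ against Sox1+FoxA2- cells gave 0 called members of 32 by edgeR (4 unadjusted, 1 by DESeq2), and only 0.00491% of genes were. Slc2a1 was at 6631, 5125 and 8908 in Sox1-FoxA2+ and at 17600, 19430 and 10060 in Sox1+FoxA2- cells, without overlap but also without a call (adjusted p = 0.492). Of 32 members, 0 lay wholly higher and 4 wholly lower, against 3.94% and 6.19% of all genes. At D4 Epas1 alone was called, against 0.266% of genes: 20660, 27720 and 21590 stood against 1072, 537 and 1779, a difference of 4.48 ± 0.62 on the log2 scale (adjusted p = 0.00151, edgeR). The replicate numbers paired the samples here, and with the replicate as a block 2 members were called, Epas1 (4.70 ± 0.59, adjusted p = 0.00232, edgeR) and Ldha (1.14 ± 0.26, adjusted p = 0.0434, edgeR), Ldha being at 11740, 13250 and 8693 in Sox1-FoxA2+ and at 5161, 4894 and 5601 in Sox1+FoxA2- cells.

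By D6, Sox1-FoxA2+ cells held 2 members at a higher level than Sox1+FoxA2- cells and 0 at a lower one, against 1.32% of 24203 genes. Epas1 was at 60470, 73370 and 52010 against 1146, 834 and 1010, a log2 difference of 6.15 ± 0.48 (adjusted p = 3.95e-10, edgeR), with every Sox1-FoxA2+ library far above every Sox1+FoxA2- library. Vegfa, the vascular growth factor induced by hypoxia factors, was at 5467, 3521 and 2885 against 716, 873 and 774 (2.54 ± 0.54, adjusted p = 0.00744, edgeR). The 3 libraries of each gate did not overlap, although without Sox1-FoxA2+ replicate 1 the call for Vegfa was lost (log2 difference 2.13, adjusted p = 0.102). Of 32 members, 8 lay wholly higher in Sox1-FoxA2+ cells and 7 wholly lower, against 6.97% and 16.3% of all genes. Pfkl, Tpi1, Ldha and Egln1 lay 1.19 to 1.38 higher on the log2 scale and did not pass (adjusted p from 0.215 to 0.249). Ddit4, an inhibitor of growth signalling, was at 168, 0 and 50.3 in Sox1-FoxA2+ and at 957, 895 and 933 in Sox1+FoxA2- cells and was not called either (adjusted p = 0.35). The median difference of the members was 0.30, against -0.30 over all genes, and scaling by library totals alone moved these to -0.10 and -0.67.

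**Figure D2:**
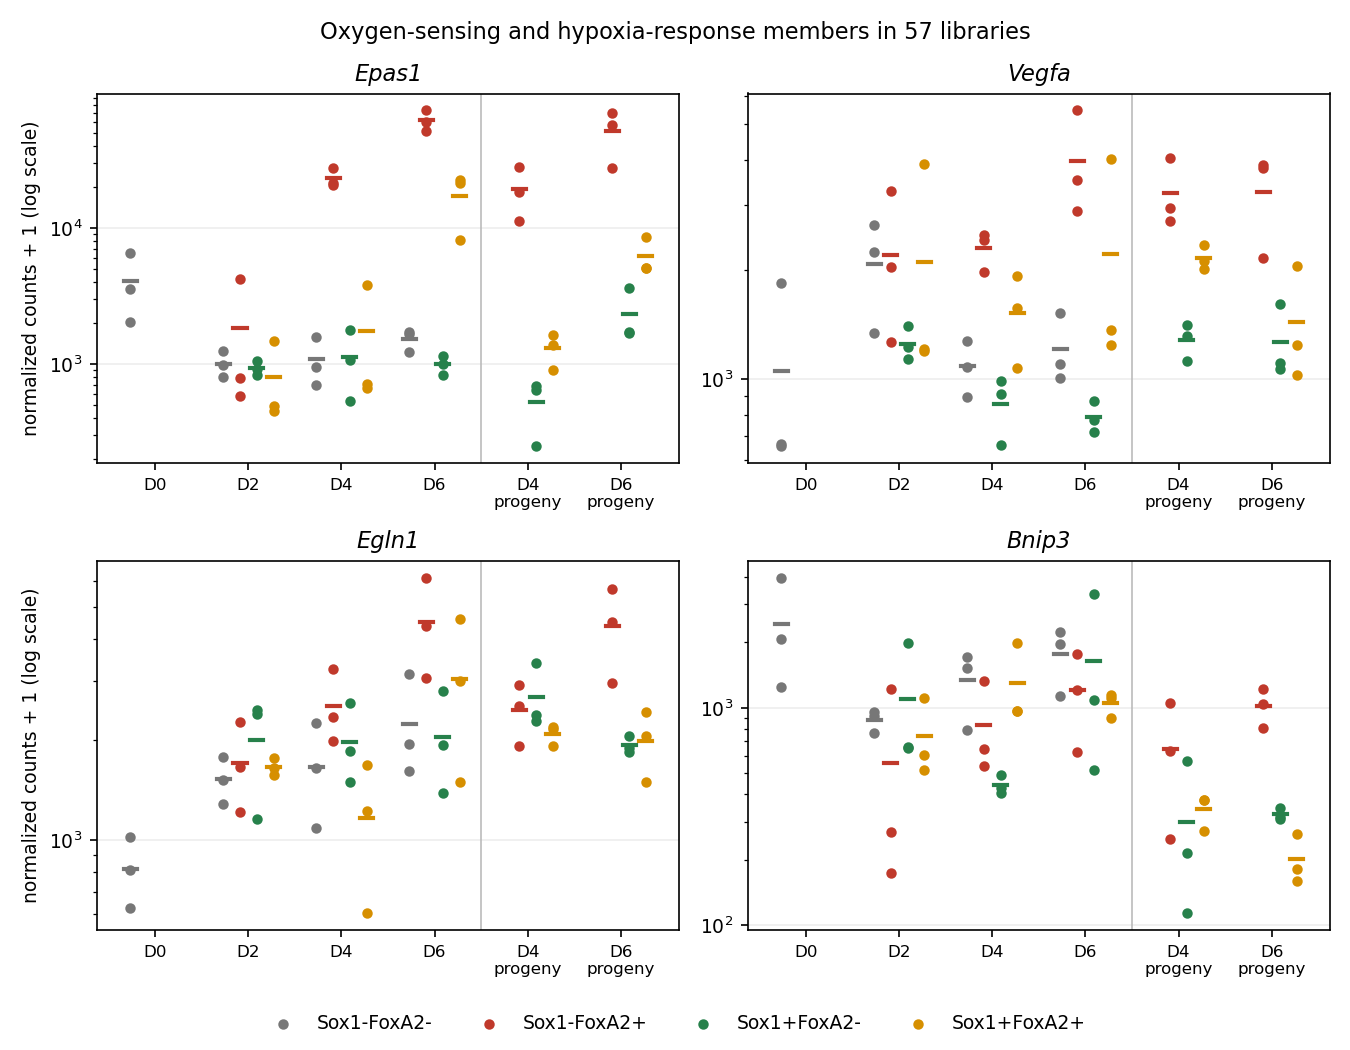
Normalised counts plus 1 (y axis, log scale) of Epas1, Vegfa, Egln1 and Bnip3 in each library by day and arm (x axis), coloured by gate, with a bar at the mean of each group of 3. Epas1 separates the Sox1-FoxA2+ libraries from D4 onwards, reaching 52010 to 73370 at D6.

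Neuronal enolase, Eno2, was listed at 0 in all 3 D6 Sox1-FoxA2+ libraries, where a count of 0 allows up to 3 counts, or 3.16 to 4.44 normalised counts, per library. It was at 184, 103 and 103 in D6 Sox1+FoxA2- cells and at 628, 166 and 0 in D2 Sox1-FoxA2+ cells. The lower limit of the Sox1+FoxA2- libraries is well above that floor, but the difference was not called (adjusted p = 0.313, edgeR). The widely expressed enolase Eno1 was at 14690, 17230 and 13030 against 15180, 15640 and 14040 in the same libraries, with overlapping groups.

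Whether Sox1-FoxA2+ and Sox1+FoxA2- cells changed differently from D2 to D6 was tested directly, in a comparison added after the data had been seen. Of 32 members, Epas1 alone was called (difference of changes 5.18 ± 0.79 on the log2 scale, adjusted p = 0.00623, edgeR), against 0.377% of 24696 genes. Without D6 Sox1+FoxA2- replicate 1 its adjusted p was 0.0554. Among the remaining members, 10 had an unadjusted p under 0.05, including Pgam1 (1.91, adjusted p = 0.106), Hk2 (1.62, adjusted p = 0.228) and Ldha (1.15, adjusted p = 0.309), so that the enzymes were not shown to differ in their course.

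Of the other hypoxia-response genes, 5 of 27 were called at D6 for Sox1-FoxA2+ against Sox1+FoxA2- cells, against 1.32% of all genes. All 5 were higher. P4ha1 was at 34210, 19270 and 21930 against 1816, 1209 and 2373 (log2 difference 4.01, adjusted p = 5.8e-06, edgeR). Plod2 was at 49960, 21750 and 24990 against 2661, 1895 and 2058 (4.08, adjusted p = 8.34e-05, edgeR). Bhlhe40, a hypoxia-induced transcriptional repressor, differed by 4.27, and P4ha2 and Cited2 by 2.70 and 2.61. Each of these 3 collagen-modifying enzymes had no overlap between the gates. Of the other transporters, Slc16a1 stood at 12260, 11380 and 12650 against 1354, 1017 and 1927 (3.26, adjusted p = 4.08e-05, edgeR), and Bsg, which brings lactate transporters to the membrane, was 1.92 higher. Hspa5, an endoplasmic reticulum chaperone, was 2.32 higher (adjusted p = 0.000931). In all, 8 of 123 other genes were called (6.5%, against 1.32% of all genes), and all 8 were higher. At D4, Plod2, P4ha1, P4ha2 and Slc16a1 were called among 122, again all higher, against 0.266% of all genes. As stated above, the lists were chosen with earlier results of these data known.

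The same gates differ in cell type markers. In D6 Sox1-FoxA2+ cells, 6 of 12 endoderm markers were called higher than in the Sox1+FoxA2- gate, 2 of 6 tested neuroectoderm markers lower and 4 of 6 markers of a two-cell-like state lower. The neuroectoderm sum was 5220 to 7410 against 21100 to 23500, and the two-cell-like sum 2.26 to 52.6 against 4310 to 6240, with 4 of its 6 markers at 0 in Sox1-FoxA2+ cells. Whether any of these sums accounts for Epas1 or Vegfa was not tested.

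Sox1+FoxA2+ cells of D6 lay between the other gates for Epas1, at 8167, 22410 and 21370. Against Sox1-FoxA2+ cells the log2 difference was -2.07 ± 0.40 (adjusted p = 0.0207, edgeR), the only member called, against 0.0909% of genes. They were higher than Sox1+FoxA2- cells by 4.08 ± 0.43 (adjusted p = 1.53e-06, edgeR), again the only member called, against 0.0496% of genes. No library of 1 gate reached into the range of another. Against Sox1-FoxA2+ cells, 3 of 32 members lay wholly higher and 3 wholly lower (6.9% and 4.63% of all genes). Against Sox1+FoxA2- cells the numbers were 2 and 2 (4.25% and 4.74% of all genes). The Epas1 call against Sox1-FoxA2+ cells did not pass when Sox1+FoxA2+ replicate 1 was left out (adjusted p = 0.0585) or Sox1-FoxA2+ replicate 2 (0.0532). It was also lost without robust estimation, with only the 2 groups in the fit and in the fit of all 57 libraries. The call against Sox1+FoxA2- cells held without any 1 library. Without Sox1+FoxA2+ replicate 2, the library with the fewest genes, 6 members were lower than in Sox1-FoxA2+ cells: Pgam1, Epas1, Ldha, Pgk1, Tpi1 and Gapdh, with log2 differences from -2.61 for Pgam1 to -1.46 for Gapdh (adjusted p from 0.000449 to 0.0393, edgeR). Slc2a1 was at 5555, 3.14 and 4756 and Pfkfb3 at 3915, 3.14 and 1169 in these libraries, so that replicate 2 was nearly empty for 2 genes that were abundant in the others.

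**Figure D3:**
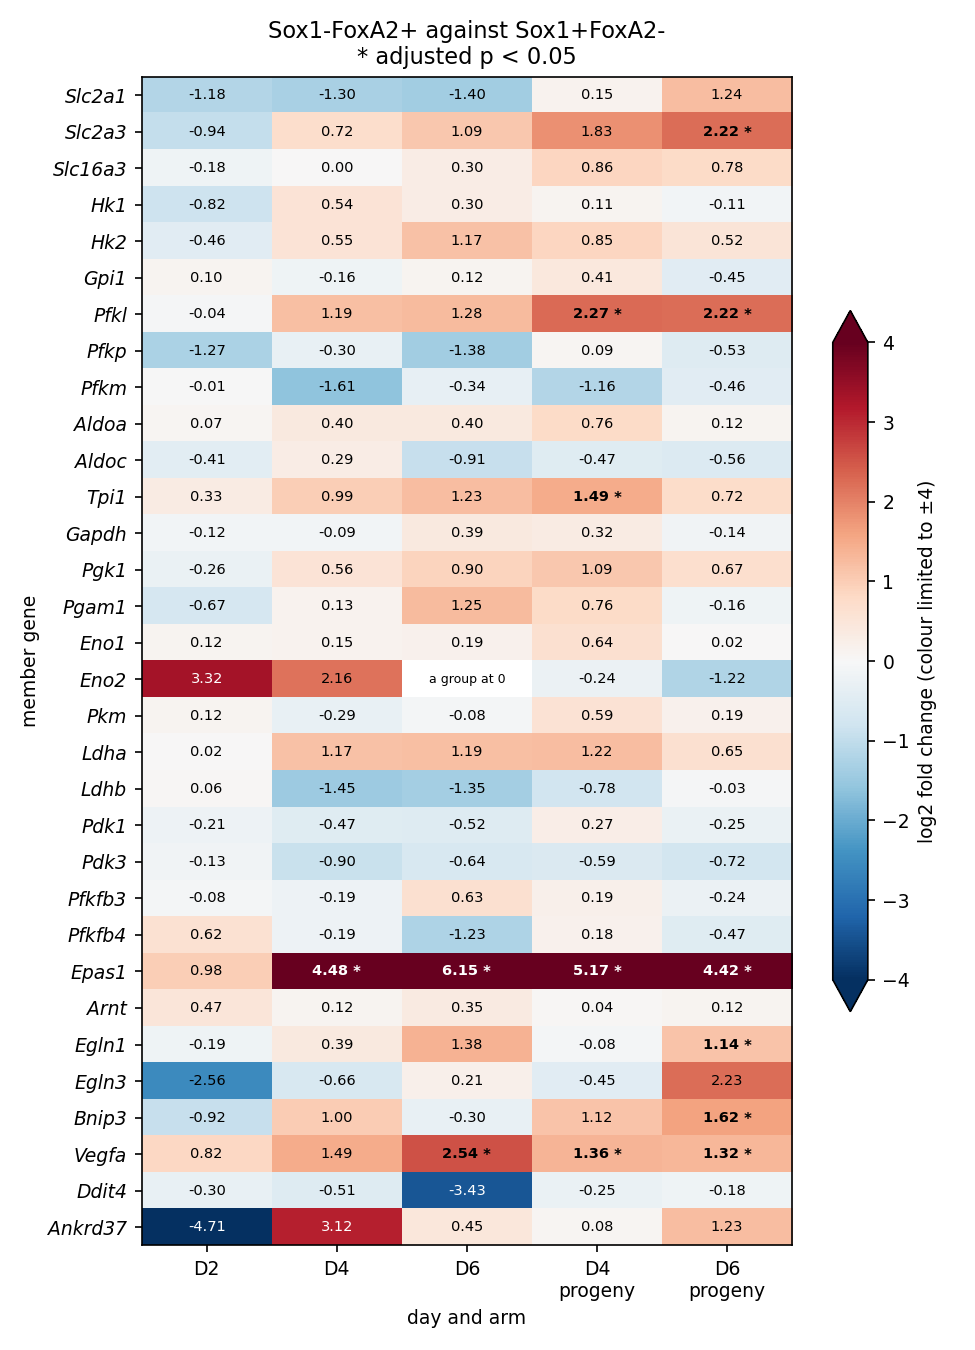
Log2 difference between Sox1-FoxA2+ and Sox1+FoxA2- cells for each member (rows) at D2, D4 and D6 and in progeny of D4 and D6 (columns), with an asterisk where the adjusted p was under 0.05 and the words "a group at 0" where no fold was computed. Epas1 is called in every column but D2, Pfkl in the progeny columns only.

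Progeny were grown from cells sorted at D2 and were not sorted again. In progeny of D4, 4 members were higher from Sox1-FoxA2+ than from Sox1+FoxA2- cells and 0 lower, against 1.97% of 20697 genes. Pfkl was at 9168, 10180 and 4730 against 1596, 1866 and 1619 (log2 difference 2.27 ± 0.32, adjusted p = 0.000301, edgeR). Epas1 was at 18420, 28030 and 11210 against 249, 688 and 650 (5.17 ± 0.48, adjusted p = 2.08e-05, edgeR). Neither gene showed any overlap between the groups. Of 32 members, 9 lay wholly higher and 1 wholly lower, against 7.9% and 6.33% of all genes. Tpi1 stood at 13110, 10190 and 4449 against 3217, 3947 and 2853 (1.49 ± 0.33, adjusted p = 0.0178, edgeR) and Vegfa at 4046, 2940 and 2717 against 1404, 1118 and 1317 (1.36 ± 0.27, adjusted p = 0.0089, edgeR). Without Sox1-FoxA2+ replicate 1 the calls for Tpi1 and Vegfa were lost (adjusted p = 0.128 and 0.0623), and that for Tpi1 also without Sox1-FoxA2+ replicate 2 (0.0718) or Sox1+FoxA2- replicate 3 (0.0662). By the same correlation rule, and with no label that states it, the replicate numbers were held to pair these samples. With the replicate as a block 8 members were called, all higher: the same 4 and Pgk1 (1.12 ± 0.20, adjusted p = 0.0012, edgeR), Ldha (1.09 ± 0.20, 0.00149), Hk2 (0.85 ± 0.20, 0.0126) and Aldoa (0.77 ± 0.21, 0.0355).

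In progeny of D6, 6 members were higher and 0 lower, against 6.91% of 21069 genes. Pfkl was at 5190, 8563 and 9838 from Sox1-FoxA2+ cells and at 1680, 1340 and 1882 from Sox1+FoxA2- cells (2.22 ± 0.25, adjusted p = 5.34e-05, edgeR). Epas1 was at 27550, 70390 and 57280 against 3620, 1711 and 1694 (4.42 ± 0.43, adjusted p = 6.32e-05, edgeR). Bnip3, which marks mitochondria for removal, was at 808, 1223 and 1035 against 307, 313 and 346 (1.62 ± 0.37, adjusted p = 0.013, edgeR). Each of these 3 genes separated the groups fully. Of 32 members, 13 lay wholly higher and 3 wholly lower, against 12.8% and 13.3% of all genes.

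Egln1, the main oxygen sensor of the pathway, was at 2962, 5680 and 4502 against 2047, 1838 and 1888 (1.14 ± 0.26, adjusted p = 0.0135, edgeR). Vegfa was at 2156, 3789 and 3869 against 1068, 1607 and 1109 (1.32 ± 0.31, adjusted p = 0.0161, edgeR). Slc2a3 was at 23960, 16700 and 13130 against 2279, 4471 and 4535 (2.22 ± 0.54, adjusted p = 0.0368, edgeR). Here too the groups did not overlap. Pfkl and Epas1 were called with any 1 of the 6 libraries left out. Slc2a3 was lost in all 6 such fits (adjusted p from 0.0879 to 0.147), Bnip3 and Vegfa in 4 each (up to 0.119 and 0.0859, without Sox1-FoxA2+ replicate 2 and Sox1+FoxA2- replicate 1) and Egln1 without Sox1-FoxA2+ replicate 2 (0.103).

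In progeny of D6 from Sox1+FoxA2+ cells, 7 members were lower than in those from Sox1-FoxA2+ cells and 0 higher, with 4.63% of genes called. The log2 difference was -3.06 ± 0.40 for Epas1, -2.37 ± 0.38 for Bnip3 and -2.17 ± 0.25 for Pfkl (adjusted p = 0.00113, 0.00209 and 0.000239, edgeR). It was -1.20 ± 0.31 for Vegfa, -1.17 ± 0.23 for Tpi1, -1.15 ± 0.26 for Egln1 and -1.11 ± 0.30 for Pgk1 (adjusted p = 0.0389, 0.00766, 0.0189 and 0.0453, edgeR). The Sox1+FoxA2+ progeny held 8544, 5118 and 5101 of Epas1, 181, 261 and 159 of Bnip3, and 1886, 1778 and 1627 of Pfkl. For these 3 genes each Sox1+FoxA2+ library was below each Sox1-FoxA2+ library. Of 32 members, 10 lay wholly lower and 3 wholly higher, against 10.1% and 11.2% of all genes. In the fit of all 57 libraries the call for Bnip3 was lost. The calls for Epas1, Bnip3 and Pfkl held in every fit with 1 library left out. Pgk1 was lost in 5 of 6 such fits (up to adjusted p = 0.138, without Sox1-FoxA2+ replicate 2), Vegfa in 4 (up to 0.151, without the same library), Egln1 in 2 (without that library, 0.127, or Sox1+FoxA2+ replicate 2, 0.106) and Tpi1 without Sox1+FoxA2+ replicate 2 (0.0513). By the correlation rule, the replicate numbers were held to pair the samples of this comparison, which no label states. With the replicate as a block all 7 were called (adjusted p up to 0.0409, edgeR). Against progeny of Sox1+FoxA2- cells, 0 members were called by edgeR (4 unadjusted, 1 by DESeq2), against 0.18% of genes. Epas1 had the lowest p there, 1.36 ± 0.38 higher on the log2 scale with an adjusted p of 0.291. These comparisons share libraries, so their lists are not independent.

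**Figure D4:**
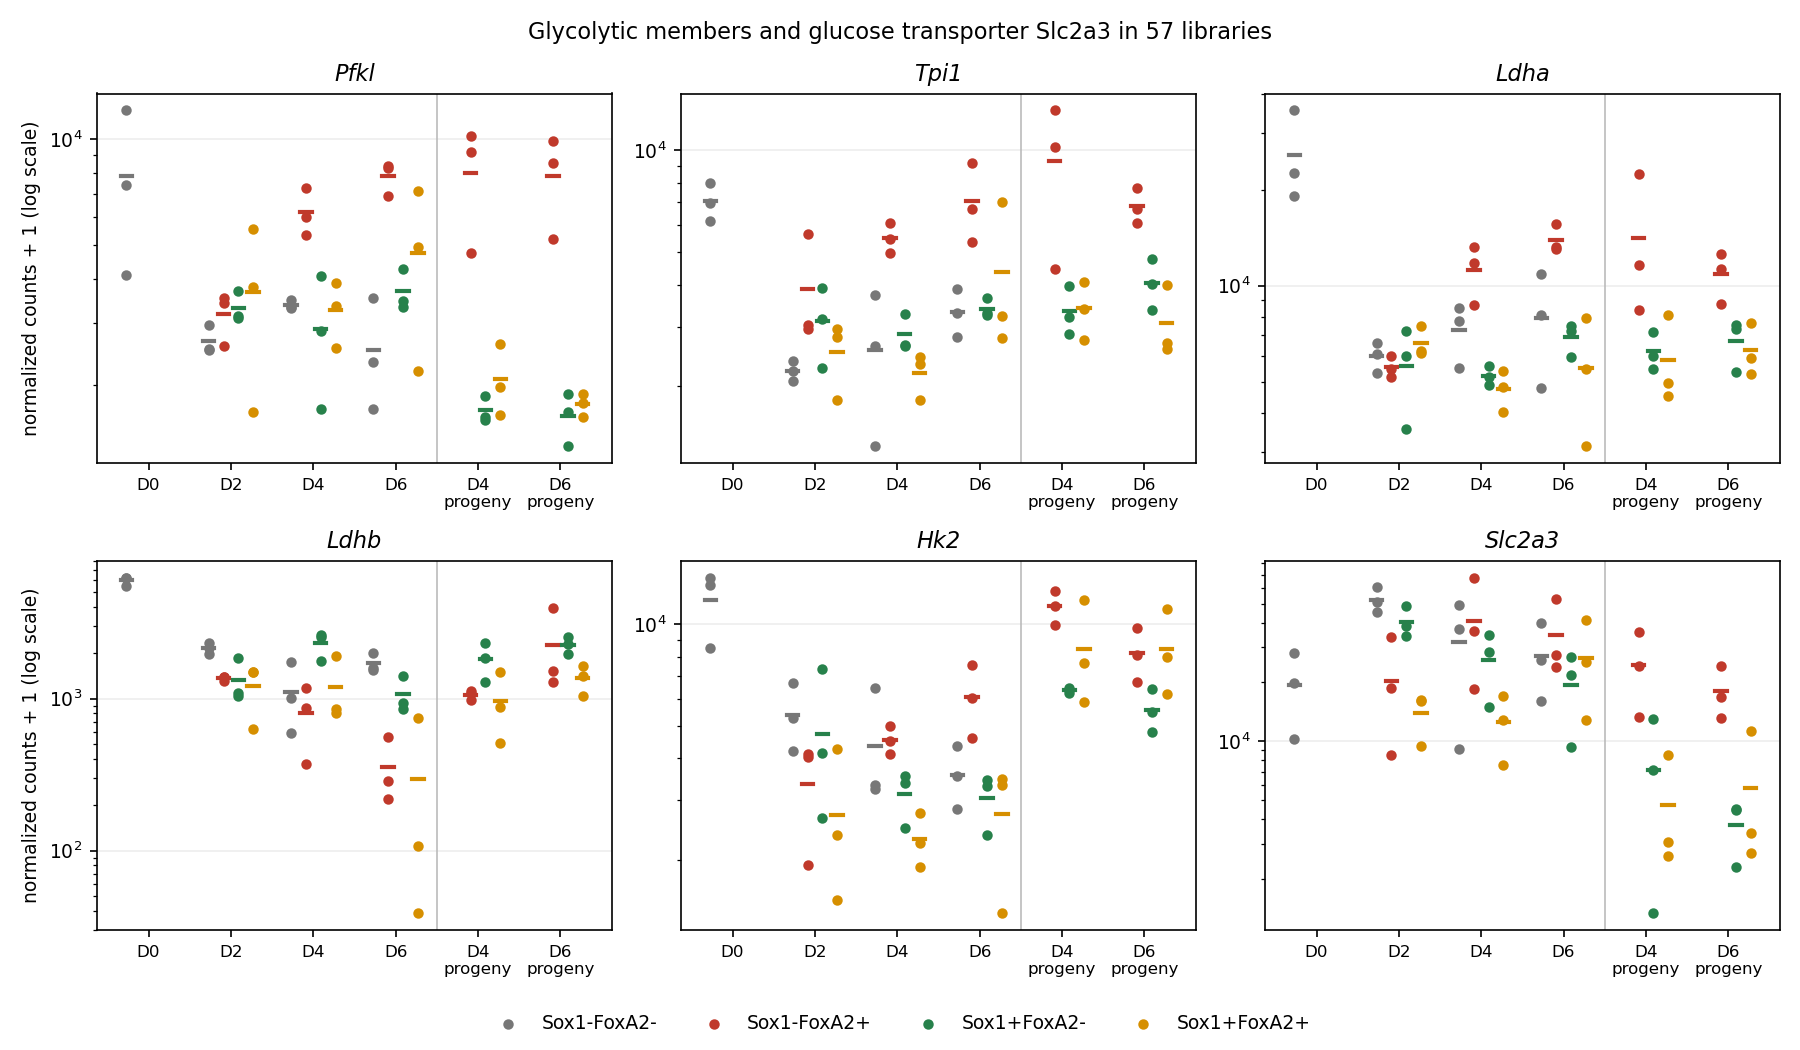
Normalised counts plus 1 (y axis, log scale) of Pfkl, Tpi1, Ldha, Ldhb, Hk2 and Slc2a3 in each library by day and arm (x axis), coloured by gate, with a bar at the mean of each group of 3. Ldha is highest at D0 (19160 to 35460), and Pfkl of progeny is higher from Sox1-FoxA2+ cells than from the other gates.

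In progeny of D6, 7 of 26 other hypoxia-response genes were higher from Sox1-FoxA2+ than from Sox1+FoxA2- cells and 0 lower, and 8 of 26 were lower from Sox1+FoxA2+ than from Sox1-FoxA2+ cells. Over all genes, 6.91% and 4.63% were called in these comparisons, in either direction. P4ha2 was at 17180, 35150 and 34900 from Sox1-FoxA2+ cells, at 2177, 1510 and 1081 from Sox1+FoxA2- cells and at 6810, 3580 and 3215 from Sox1+FoxA2+ cells, a log2 difference of 4.14 in the first comparison and of -2.69 in the second (adjusted p = 3.74e-05 and 0.00111, edgeR). The 3 ranges did not overlap. Plod2, P4ha1 and Mxi1, a Myc antagonist, were 3.04, 3.27 and 1.66 higher in the first comparison. Slc16a1 was 2.03 higher and Arrdc4, a regulator of glucose uptake, 1.24 higher, while the log2 difference of Myc was -1.64. Hkdc1 was 5.46 higher, and the muscle enolase Eno3 had a difference of -1.98. Arnt2, a neural partner of the hypoxia factors, had a difference of -2.55, and Ogdh and Suclg2 of the tricarboxylic acid cycle were 0.67 and 0.94 higher. In all, 15 of 120 other genes (12.5%) were called in each of these comparisons, against 6.91% and 4.63% of all genes. They were 12 higher and 3 lower in the first, and 2 higher and 13 lower in the second. In progeny of D4, 5 of 119 were called, against 1.97% of all genes. All were higher: Car12, P4ha1, P4ha2, Plod2 and Hkdc1.

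Whether the difference between Sox1-FoxA2+ and Sox1+FoxA2- cells was itself different in progeny and in sorted cells of D6 was also tested. By edgeR, 0 members were called (5 unadjusted, 1 by DESeq2), with 0.0196% of 25515 genes called. The difference in progeny minus that in sorted cells was -1.60 ± 0.55 on the log2 scale for Epas1 (adjusted p = 0.36), 1.09 ± 0.50 for Pfkl (0.418) and 2.05 ± 0.86 for Bnip3 (0.377). On simulated counts, this test recovered 12.4% of true log2 differences of 3 and 0% of those of 1.5. The changed genes were drawn at random from all genes tested, so these shares are not those of the members. With 0 members called in this test, calls in progeny alone, as for Pfkl, do not show that progeny differ from sorted cells in this respect. The absence of a call does not show that the arms were alike either.

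Replated progeny and sorted cells of the same day, compared with the gate as a term, show the members in another culture history. The gate is that of D2 for progeny and that of the day of harvest for sorted cells. At D4, 2 members were higher and 1 lower in progeny, against 6.75% of 24857 genes. Hk2 was at 12590, 11320 and 9985 in Sox1-FoxA2+ progeny against 4999, 4116 and 4507 in sorted cells, at 6249, 6383 and 6483 against 3546, 3378 and 2481 for Sox1+FoxA2- and at 5894, 11840 and 7670 against 1896, 2748 and 2244 for Sox1+FoxA2+ (1.48 ± 0.19, adjusted p = 5.1e-06, edgeR). Pfkfb3, whose product activates phosphofructokinase, was at 2074 to 2820 in the 9 progeny libraries, with a median of 2347, and at 180.5 to 1251 in the 9 sorted ones, with a median of 825 (1.65 ± 0.26, adjusted p = 0.000104, edgeR). Each of these 2 genes was higher in progeny in every gate without overlap. Pdk1, another kinase of pyruvate dehydrogenase, was lower, at 64.2 to 571.5 (median 300.5) against 252.5 to 2229 (median 880), with a log2 fold change of -1.55 ± 0.43 (adjusted p = 0.0242, edgeR). The call for Pdk1 was lost in 8 of 18 fits with 1 library left out, at most with an adjusted p of 0.106 (without D4 sorted Sox1+FoxA2- replicate 3).

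At D6, 2 members were higher and 6 lower in progeny, against 12.3% of 25515 genes. Hk2 was again higher (1.17 ± 0.21, adjusted p = 0.000361, edgeR), at 4777 to 11120 (median 6739) in the 9 progeny libraries against 1383 to 7590 (median 3451) in the 9 sorted ones. Ldhb was higher by 2.15 ± 0.43 (adjusted p = 0.00114, edgeR), at 1033 to 3962 (median 1648) against 37.6 to 1415 (median 562). Only the highest sorted libraries reached into the range of the progeny for these genes. Slc2a3 was lower, at 2279 to 23960 (median 4535) against 9293 to 52660 (median 25360), with a log2 fold change of -1.68 ± 0.36 (adjusted p = 0.00453, edgeR). Egln3, a hypoxia-induced prolyl hydroxylase, was lower at 3.62 to 736 (median 131) against 239.8 to 1446 (median 468), a log2 fold change of -1.99 ± 0.63 (adjusted p = 0.0351, edgeR). The ranges overlapped for each of these genes. Bnip3, Pdk1, Pfkp (the platelet-type phosphofructokinase) and Pfkl were also lower, with log2 fold changes of -1.49, -1.40, -1.21 and -0.71 (adjusted p = 0.0153, 0.0104, 0.0182 and 0.0401, edgeR). Hk2, Ldhb, Pdk1 and Slc2a3 were called with any 1 of the 18 libraries left out, while Pfkl was lost in 15 of the 18 fits, Egln3 in 9, Pfkp in 4 and Bnip3 in 1 (adjusted p up to 0.122, 0.0998, 0.092 and 0.0721). Without D6 sorted Sox1+FoxA2+ replicate 2, 10 members were called, 5 higher and 5 lower. Pfkl was then no longer among them, and Hk1, Pfkfb3 and Eno2 were added as higher (log2 fold change 0.64, 1.05 and 3.48, adjusted p = 0.0378, 0.0131 and 0.0489, edgeR).

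**Figure D5:**
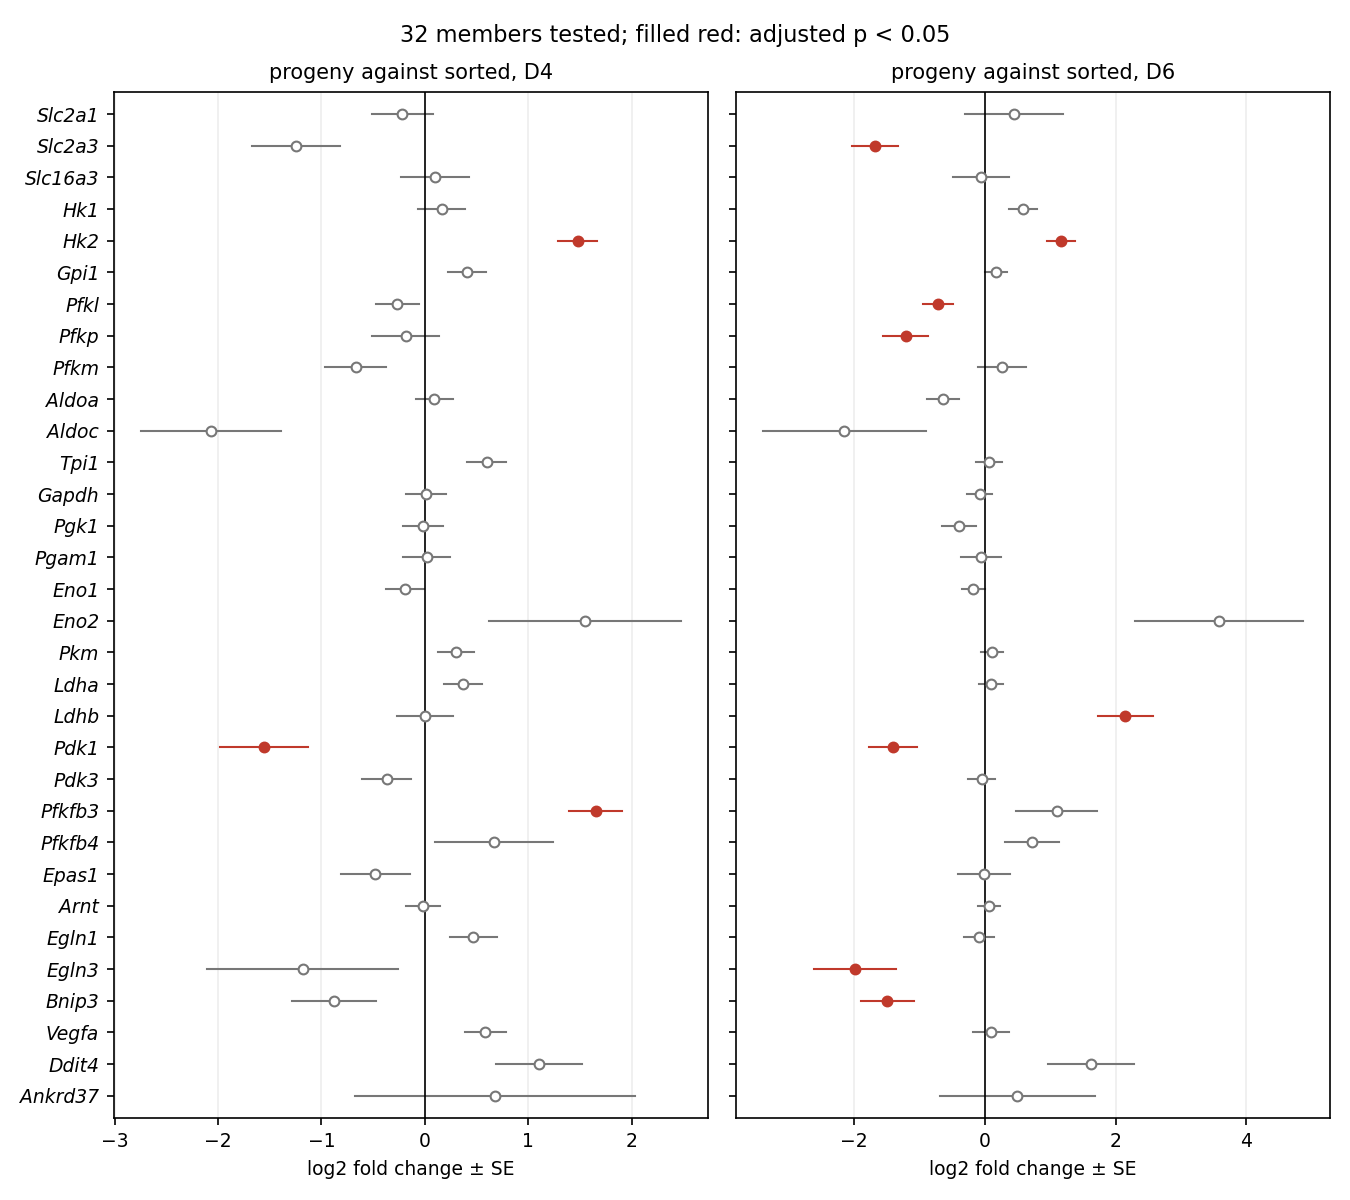
Log2 fold change of each tested member in progeny against sorted cells at D4 and at D6 (x axis; bars are ± 1 SE, filled points passed an adjusted p of 0.05), genes on the y axis. Hk2 lies right of 0 at both days (1.48 and 1.17) and Pdk1 left of 0 (-1.55 and -1.40).

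Among other genes, 9 of 123 were called at D4 (7.32%) and 15 of 125 at D6 (12%), both near the background. The mitochondrial malate dehydrogenase gene Mdh2 was higher on each day (0.55 and 0.78 on the log2 scale, adjusted p = 0.0356 and 0.00137, edgeR), and Suclg2 and Asns, the asparagine synthetase of the integrated stress response, were lower. At D6 the log2 fold change was -1.37 for Arrdc4, 1.10 for Hspa5 and 1.02 for Pgd, of the pentose phosphate pathway (adjusted p = 3.07e-05, 0.00145 and 0.0074, edgeR). Markers of neural crest and mesenchyme moved with the same contrast, with summed levels of 2710 to 91600 in progeny against 405 to 6820 in the sorted cells of D4 and D6, and their part was not tested. From D4 to D6 within progeny, with the gate as a term, Epas1 alone was called among the members (1.91 ± 0.29 higher at D6, adjusted p = 0.00186, edgeR), against 1.79% of 24025 genes. Of 121 other genes, 5 were called and all were higher at D6: Plod2, P4ha1, P4ha2, Kdm3a and Hkdc1. Endoderm markers moved with them: 5 of 12 were called higher, Gata4 by 1.85, Gata6 by 1.15, Lama1 by 2.31, Lamb1 by 1.53 and Col4a1 by 1.53 on the log2 scale, while the neuroectoderm marker Nes had a log2 fold change of -0.96 (adjusted p = 0.0314, edgeR). Their part in the result was not tested.

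The isozyme pairs differed in how widely they ranged over the 19 conditions. Ldha was highest at D0 (19160 to 35460) and Ldhb was lowest in D6 Sox1-FoxA2+ (562, 287 and 219) and D6 Sox1+FoxA2+ cells (37.6, 107 and 742). Within libraries, the log2 ratio of Ldha to Ldhb was 4.53 to 5.91 in D6 Sox1-FoxA2+ cells, 2.35 to 3.13 in D6 Sox1+FoxA2- cells and 1.15 to 3.13 in progeny of D6 from Sox1-FoxA2+ cells. That ratio also depends on transcript length and is compared between conditions only. The log2 ratio of Pfkp to Pfkl was between -4.61 and -2.86 in every Sox1-FoxA2+ library from D4 on and between -2.35 and 0.24 in every Sox1+FoxA2- library, without overlap. Pfkm, the muscle type, stayed between 169 and 2532 with no call in any comparison.

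Hk1, the constitutive hexokinase, ranged from 613 to 3654 and was called in no comparison, whereas Hk2 ranged from 1383 to 13770, with its highest values at D0 and in progeny. Aldoc, the brain-type aldolase, lay between 0 and 997, and in the progeny it never exceeded 249. Slc2a1 was highest in D2 Sox1+FoxA2- cells (17600, 19430 and 10060) and Slc2a3 in D4 Sox1-FoxA2+ and D2 Sox1-FoxA2- cells (up to 67840 and 60810), with wide spreads. Pdk1 was highest at D0 (4232, 6660 and 2633) and lowest in progeny, while Pdk3 was highest at D2. Pfkfb4, which acts on the same regulator as Pfkfb3, ranged from 0 to 1108 without a call. Egln3 ranged from 0 to 1446 and Egln1 from 600 to 6129, the latter highest in D6 Sox1-FoxA2+ cells and in their D6 counterparts among progeny. Arnt, the common partner of the hypoxia factors, stayed between 2280 and 5642 in all 57 libraries, and Gpi1, the second enzyme of glycolysis, between 2081 and 8024, neither with a call. Pgam1, the phosphoglycerate mutase, ranged from 509 to 6597 and was highest in D6 Sox1-FoxA2+ replicate 2, again without a call over all libraries of a comparison. Slc16a3, the lactate exporter MCT4, at 6.46 to 2019, and Ankrd37, a small hypoxia target with at most 292 normalised counts, were likewise not called. Against them, Epas1 spanned 249 to 73370, and its highest 4 conditions were D6 Sox1-FoxA2+ cells, progeny of D6 from Sox1-FoxA2+ cells, D4 Sox1-FoxA2+ cells and progeny of D4 from the same gate, in that order of mean. Each of these conditions overlapped its neighbour in that order.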

How the data were processed

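RNA-seq was performed on 57 libraries of small cell pools, 3 for each of 19 conditions, with the SMART-Seq Stranded Kit. The authors aligned reads with STAR, used SAMtools, assigned the reads to genes of GENCODE M21 (GRCm38) with featureCounts, and deposited raw counts. Tool versions and the strand and pair settings are not given in the sources used here. In the table, 80.6% of counts above 0 are even, and 92 spike-in rows held 0 counts. The replicates are called biological by the study.

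Genes were tested with the quasi-likelihood test of edgeR 4.0.16 (R 4.3.3) after TMM scaling and filterByExpr with a minimum count of 10, over the groups of each comparison, with Benjamini-Hochberg adjustment over all genes tested. Errors of log2 fold changes are SE. Levels are counts divided by size factors of DESeq2 1.42.0 over all libraries. The members and lists were chosen with earlier results of these data known. The genes named were at most 8 called members per comparison, by size of change, with the remainder by range, and genes that 1 library decides. The replicate numbers were held to pair the samples where all 3 correlations of same-numbered deviations exceeded 0.1, which was so for 6 of 23 pairs of groups. The sample labels do not state that same-numbered libraries share a culture, and differently numbered libraries were not compared in this way. Calls with the replicate block rest on this rule. Alternatives were another scaling, no filter, DESeq2, a replicate block, a fit of all libraries or of 2 groups, and leaving out each library. On simulated data, 39.4% of genes with a true log2 change of 3 were recovered between D0 and D2 (19917 genes in that step), 54.2% between progeny of D6 (19551), 37.4% between progeny and sorted cells (24010), 31.8% between sorted gates of D6 (22489) and 12.4% for the difference between arms (24335). The changed genes were drawn at random from all genes tested, so these shares are not those of the members. No 2 replicates held identical values. Intervals of zero counts cover counting error only.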

Additional observations from a re-analysis of the deposited data

Results flagged for a closer look

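Epas1 differed in its course between gates. From D2 to D6 its log2 change in Sox1-FoxA2+ cells exceeded that in Sox1+FoxA2- cells by 5.18 ± 0.79 (SE; adjusted p = 0.00623, edgeR's quasi-likelihood test of the interaction), with levels going from 792, 586 and 4200 to 60470, 73370 and 52010 in the former and from 826, 1063 and 921 to 1146, 834 and 1010 in the latter. The comparison was added after the data had been seen, and without D6 Sox1+FoxA2- replicate 1 the adjusted p was 0.0554.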

How the results depend on the processing

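No called member changed sign under any alternative run, while calls came and went. Counts of called members are given here, chiefly where they moved by over 1.5 times. For D2 against D0 the count was 10, and 6 with library totals only, 5 with all 57 libraries in 1 fit, and 3 to 10 leaving out 1 library. With library totals only, D4 progeny (Sox1-FoxA2+ against Sox1+FoxA2-) gave 2 in place of 4, and the members' median at D6 turned from 0.30 to -0.10 in sorted cells and from 0.12 to -0.02 in progeny. The fit of all 57 libraries gave 3 in place of 5 for D2 to D6 in Sox1-FoxA2+ cells, 2 in place of 0 in Sox1+FoxA2+ cells, 7 in place of 2 at D6 (Sox1-FoxA2+ against Sox1+FoxA2-), 2 in place of 1 for Sox1+FoxA2+ against Sox1-FoxA2+ cells of D6, and 2 in D4 progeny, in D6 progeny (in place of 6) and for Sox1+FoxA2+ against Sox1-FoxA2+ progeny of D6 (in place of 7). In that fit Epas1 was lost for Sox1+FoxA2+ against Sox1-FoxA2+ cells of D6, so the 2 members called there were other genes. With no filter on low counts, counts rose from 0 to 1 or 2 in 6 comparisons, from 1 to 2 for Sox1+FoxA2+ against Sox1-FoxA2+ cells, from 1 to 3 for the difference in course and from 10 to 15 for D2 against D0. DESeq2 gave 10 in place of 5 for D2 to D6 in Sox1-FoxA2+ cells, 8 in place of 3 for progeny against sorted cells at D4, 4 in place of 1 or 2 at D4 and at D6 (Sox1-FoxA2+ against Sox1+FoxA2-), for Sox1+FoxA2+ against Sox1-FoxA2+ cells and for the difference in course, and 1 or 2 in place of 0 elsewhere. At D6 the replicate numbers met the correlation rule for Sox1-FoxA2+ and for Sox1+FoxA2+ against Sox1+FoxA2- cells, and for Sox1+FoxA2+ against Sox1-FoxA2+ progeny. With the replicate block, every member called there stayed called (adjusted p up to 0.0409, edgeR). Counts with the block were 2 in place of 1 at D4 (Sox1-FoxA2+ against Sox1+FoxA2-) and 8 in place of 4 in D4 progeny, where the numbers met the rule too. Where they did not, the block gave 11 for D2 against D0, 6 for D2 to D6 in Sox1-FoxA2+ cells with Epas1 lost (adjusted p = 0.0643), 1 in place of 0 in Sox1+FoxA2+ cells, 2 in place of 1 for Sox1+FoxA2+ against Sox1-FoxA2+ cells, 5 in place of 6 in D6 progeny and 5 in place of 3 for progeny against sorted cells at D4. Without robust estimation the last was 5 too, and Sox1+FoxA2+ against Sox1-FoxA2+ cells gave 0, as with only the 2 groups in the fit, which gave 1 in place of 0 for D2 to D6 in each Sox1+ gate, 4 in place of 2 at D6 (Sox1-FoxA2+ against Sox1+FoxA2-) and 4 in place of 7 for Sox1+FoxA2+ against Sox1-FoxA2+ progeny. Leaving out 1 library gave 2 to 8 for D2 to D6 in Sox1-FoxA2+ cells, 0 to 1 in Sox1+FoxA2+ cells, 1 to 2 at D6 (Sox1-FoxA2+ against Sox1+FoxA2-), 0 to 6 for Sox1+FoxA2+ against Sox1-FoxA2+ cells, 2 to 5 in D4 and D6 progeny, 4 to 7 for Sox1+FoxA2+ against Sox1-FoxA2+ progeny, 2 to 5 and 4 to 10 for progeny against sorted cells at D4 and D6, and 0 to 2 for the difference in course. Where a cause is not given by the setting itself, the cause was not tested. Depth and 3 libraries a group limit small changes: on simulated counts 7.45% of changes of 1.5 on the log2 scale were recovered between D0 and D2. That share covers genes drawn from all those tested and is not the share of the members.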
